A study of Mus musculus with 6 samples.

Results

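The replication-dependent histone genes supply the core histones H2A, H2B, H3 and H4 and the linker histone H1 that package newly made DNA. Members were the protein-coding RefSeq genes of mouse build GRCm38 named Hist1h, Hist2h, Hist3h or Hist4h, with their newer symbols, and 67 of 21887 protein-coding genes met this rule. They comprised 6 H1, 18 H2A, 18 H2B, 12 H3 and 13 H4 genes. Accessible chromatin had been measured by ATAC-seq, in which the transposase Tn5 inserts sequencing adapters into open DNA, in cultured dermal fibroblasts of the mouse, which make the collagen-rich matrix of the skin. There were 3 wildtype (WT) libraries and 3 Lap2alpha KO (KO) libraries, all grown in DMEM with fetal calf serum and antibiotics. The labels give the genotype and no age, strain or method of deletion, and whether libraries of a genotype came from separate animals or cultures is not given in the sources used here. Lap2alpha, a product of the gene Tmpo, is a protein of the nuclear interior that binds A-type lamins. The values analysed here are those of 1 combined peak list per genotype, in which the libraries cannot be told apart. These lists give no spread between replicates and allow no test between genotypes, and every difference below describes the lists.

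Replication-dependent histone genes are transcribed mainly during S phase, when chromatin is duplicated. They are short, without introns, and their messenger RNAs end in a conserved stem-loop in place of a poly(A) tail. Most lie in clusters that gather in nuclear bodies with the coactivator NPAT and the RNA-processing factors of histone messages, and many H2A and H2B genes sit head to head around a shared promoter. A few members, among them H1f6, H2ac1 and H2bc1, are known as testis forms used in male germ cells.

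Of the chromosome 13 cluster, Hist1, 54 members formed 4 blocks, where a block holds members less than 100 kb apart. Block A ran from 21715711 to 21837530 with 18 genes, block B from 22035122 to 22043658 with 5, block C from 23531044 to 23764412 with 29, and block D from 23933725 to 23934913 with 2. Hist2 held 10 genes on chromosome 3 from 96219885 to 96270192. Hist3 held H2bu2 and H2aw on chromosome 11 from 58948911 to 58955192, and Hist4 held only H4f16 on chromosome 6 from 136803993 to 136804431.

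The promoters of all 6 H1 genes are shown first, because the member that differed most between the genotypes, H1f1, and a member without a peak, H1f6, belong to this group. Each run gives the 150 bases before the annotated start, 5′ to 3′ on the gene's strand, from RefSeq on GRCm38.p6. Capitals mark the CCAAT box, the TATA box with letters TATAAA, and the H1 box with letters AAACACA, on either strand. The positions are chr13:23763518-23763667 for H1f1, chr13:23738657-23738806 for H1f2, chr13:23554882-23555031 for H1f3 and chr13:23695661-23695810 for H1f6 on the plus strand, and chr13:23622559-23622708 for H1f4 and chr13:21780626-21780775 for H1f5 on the minus strand.
H1f1: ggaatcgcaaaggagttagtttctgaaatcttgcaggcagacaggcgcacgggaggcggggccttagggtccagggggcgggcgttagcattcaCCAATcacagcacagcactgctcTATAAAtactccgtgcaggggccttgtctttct
H1f2: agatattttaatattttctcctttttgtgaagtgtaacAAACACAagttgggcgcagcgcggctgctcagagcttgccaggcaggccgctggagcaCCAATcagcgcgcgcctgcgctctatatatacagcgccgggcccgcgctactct
H1f3: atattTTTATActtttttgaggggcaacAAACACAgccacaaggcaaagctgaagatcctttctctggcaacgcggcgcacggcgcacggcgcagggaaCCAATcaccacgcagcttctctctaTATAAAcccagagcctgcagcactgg
H1f4: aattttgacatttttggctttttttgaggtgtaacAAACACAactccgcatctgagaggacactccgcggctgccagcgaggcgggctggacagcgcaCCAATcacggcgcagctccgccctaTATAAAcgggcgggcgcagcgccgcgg
H1f5: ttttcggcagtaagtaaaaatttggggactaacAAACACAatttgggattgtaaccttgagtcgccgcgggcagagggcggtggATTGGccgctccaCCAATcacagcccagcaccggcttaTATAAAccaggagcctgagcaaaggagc
H1f6: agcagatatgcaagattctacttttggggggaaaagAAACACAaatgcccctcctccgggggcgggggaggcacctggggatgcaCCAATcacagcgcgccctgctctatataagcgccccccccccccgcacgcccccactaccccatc

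All 6 hold CCAAT, between 65 and 51 bases before the start at its nearest copy. The H1 box lies between 122 and 112 bases before the start in H1f2, H1f3, H1f4, H1f5 and H1f6, and these letters are not in this window of H1f1. At its nearest copy, TATAAA lies between 33 and 26 bases before the start in H1f1, H1f3, H1f4 and H1f5. The printed windows of H1f2 and H1f6 lack these exact letters but hold TATATA. Such variants of the TATA box were not searched.

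The interval between H2ac8 and H2bc8 is shown as an example of the head-to-head arrangement, since the summit of 1 peak lay inside it in both genotypes. It spans 179 bases at chr13:23571221-23571399 and is printed on the strand of H2bc8. Capitals mark the same CCAAT and TATA boxes and the octamer ATTTGCAT, a letter pattern bound by the POU factor encoded by Pou2f1, on either strand. The 250 bases before the start of H2ac1 at chr13:23934187-23934436, in the shared promoter of the testis pair, are marked in the same way, because neither list had a peak there.
H2ac8 to H2bc8: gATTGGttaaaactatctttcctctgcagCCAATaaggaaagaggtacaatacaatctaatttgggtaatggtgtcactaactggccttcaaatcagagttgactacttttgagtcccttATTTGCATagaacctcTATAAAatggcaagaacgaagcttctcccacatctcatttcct
H2ac1: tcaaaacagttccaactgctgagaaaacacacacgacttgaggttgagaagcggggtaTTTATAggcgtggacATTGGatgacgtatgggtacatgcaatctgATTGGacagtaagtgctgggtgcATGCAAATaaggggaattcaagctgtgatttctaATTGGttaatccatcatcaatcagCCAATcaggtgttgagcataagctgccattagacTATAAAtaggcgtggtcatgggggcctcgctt

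Among all promoters, the RefSeq table held an entry for 62 of the 67 members, with H3c7, H2bc4, H3c1, H2bc21 and H4c14 missing, and for 17492 protein-coding genes in all. Motif letters were searched on both strands of the 300 bases from 250 before to 50 after the first listed start of each gene. Neighbouring windows of head-to-head genes overlap and share letters. CCAAT was present in 85.5% of member promoters and 39.0% of all promoters. It was found in all 6 H1, 18 H2A, 16 H2B and 10 H3 windows, and in 3 of 12 H4 windows. TATAAA was present anywhere in the window, on either strand, in 56.5% of members and 13.3% of all. At 40 to 20 bases before the start on the gene's strand it was in 12 of 62 members, 19.4%, and in 2.84% of all. These were 4 of 6 H1, 4 of 18 H2A, 1 of 16 H2B, 2 of 10 H3 and 1 of 12 H4 windows. The octamer was present in 13 of 62 members and 1.71% of all. The octamer was found in 7 H2A and 6 H2B windows and in no H1, H3 or H4 window. AAACACA was present in 5 of 6 H1, 2 H2A and 2 H2B windows, beside 6.13% of all promoters. GGTCC, the core of the site II element of H4 promoters, was found in 11 of 12 H4 windows, although 48.9% of all promoters hold these letters. GGGCGG was found in 37.1% of members and 46.3% of all. The E2F letters TTTGGCGC or TTTCCCGC occurred in 1 member, H4c1, and in 2.09% of all promoters. The median GC content was 45.3% over member windows and 56.3% over all.

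Nearly every histone gene was accessible in both genotypes. A peak overlapped 64 of 67 members in both lists and 3 in neither, and no member was overlapped in 1 list only. Over all protein-coding genes, 67.2% were overlapped in both lists, 29.2% in neither, 2.5% in WT only and 1.09% in KO only. With the wider rule of a summit, the peak's highest point, within 5 kb of the gene, 66 members had a peak in both lists and H2bu2 in neither, beside 74.1% of all genes in both, 2.56% in WT only and 1.01% in KO only.

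At the starts themselves, 58 of 62 members with an annotated start had it inside a peak in both lists, and the other 4 in neither. Among 17492 protein-coding genes with such an entry, 51.0% had a start inside a peak in both lists. The open region extended on both sides of member starts. In WT the median strongest peak reached 1246 bp upstream and 1286 bp downstream of the start, and in KO 1169 bp and 1132 bp. At 1000 bp downstream of the start, 84.1% of member starts still had the position inside a WT peak and 66.7% inside a KO peak. This position lies past the end of every member under 1 kb long. It was the position with the widest gap between the lists among those examined within 3 kb, and at 500 bp downstream the shares were 92.1% and 88.9%. At 1000 bp before the start they were 71.4% and 66.7%. At 300 bp before the start the order was the opposite, with 79.4% in WT and 88.9% in KO. Over all starts the shares at 1000 bp downstream were 25.4% and 22.005%. Since most members are shorter than 1 kb, the peaks covered the genes whole. Of the 61 members under 1 kb long, 57 lay entirely inside WT peaks and 56 entirely inside KO peaks.

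**Figure D1:**
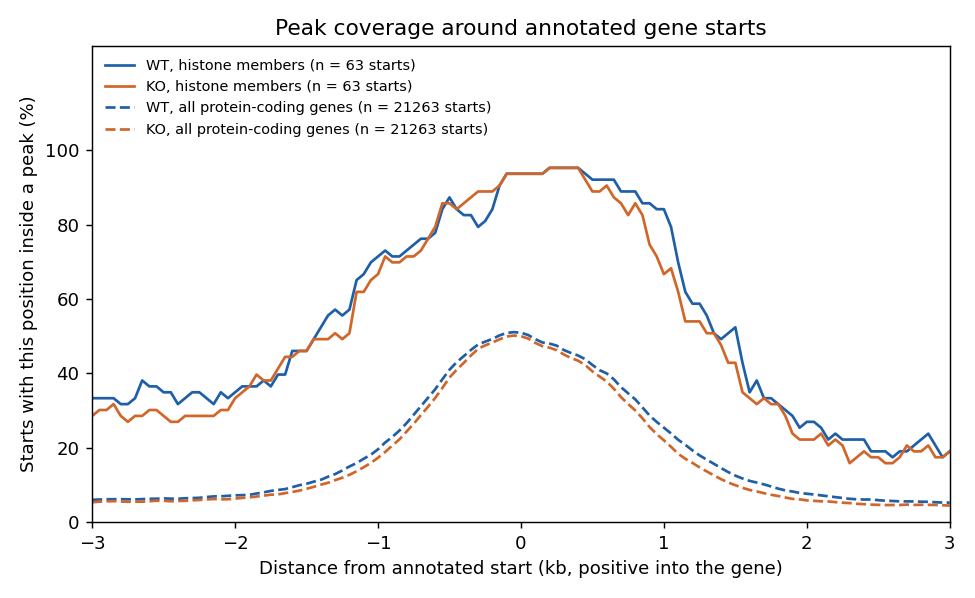
Share of annotated starts (y axis, percent) whose position at each distance (x axis, kb, positive into the gene) lay inside a peak, for 63 starts of 62 histone members and 21263 starts of protein-coding genes, in WT (blue) and KO (orange). At the start itself 93.7% of member starts were inside a peak in each list. The WT line of the members lies above the KO line around 1 kb downstream of the start, and the KO line lies above from 400 to 200 bp before the start.

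These peaks stood near the top of both lists. Each peak's signal, as the authors deposited it, sums over the width of the peak and is not scaled between lists, so it was used only as a percentile within its own list. Each member was given the percentile of the strongest peak overlapping it. Over the 64 members with a peak the percentile had a median of 99.36 for the WT list and 99.35 for the KO list. Over the 14708 genes overlapped in both lists the medians were 90.6 and 89.4. In each list 44 of the 64 members stood at or above percentile 99, beside 6.91% of those genes in WT and 6.27% in KO. The median width of the members' peaks was 2787 bp in WT and 2585 bp in KO, against 1500 bp and 1429 bp over those genes. Because neighbouring members share peaks, the 64 values rest on 40 different peaks in each list. The 44 members at or above percentile 99 rest on 22 of these peaks in each list.

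**Figure D2:**
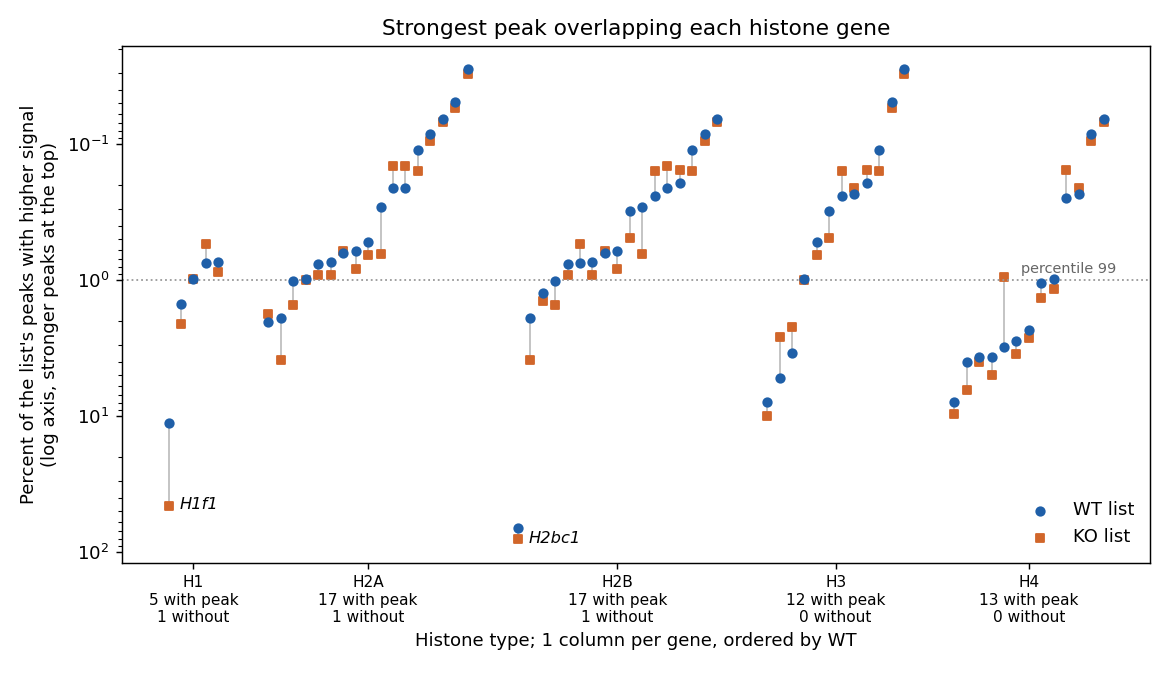
Strongest peak overlapping each histone gene, as the percent of its list's peaks with higher signal (y axis, log scale, stronger peaks at the top), for WT (blue circles) and KO (orange squares), with genes grouped by histone type and ordered by WT. Most genes sit above or near the line at percentile 99 in both lists, while H2bc1 in both lists and H1f1 in KO lie far below the other members.

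The linker histone genes held the member that differed most. H1f1 encodes a somatic H1 subtype and lies at the end of block C, from 23763668 to 23764412. The WT peak spanned 23763483 to 23764684 and stood at percentile 88.8. The KO peak spanned 23763513 to 23764151 and stood at percentile 54.6. It was 639 bp wide where the WT peak was 1202 bp wide, and covered 65.0% of the gene where the WT peak covered it whole. The difference, KO minus WT, was -34.1 percentile points. It was -44.3 points by the −log10 of the summit p and -57.1 points by signal per peak length. Of the 14708 genes overlapped in both lists, 10.3% had a strongest peak over 10 percentile points lower in KO and 3.58% over 10 points higher. Among members these counts were 2 and 0, H1f1 and H2bc1. Of 9803 genes with a WT peak at or above percentile 85, 36 were lower in KO by as much as H1f1 or more. H1f1 was picked as the member with the largest fall, and this cut lies just below its own WT percentile. The count is therefore a description and no measure of rarity.

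By signal percentile the other somatic H1 genes were near the top in both lists. H1f2 was at percentile 99.26 in WT and 99.13 in KO, H1f3 at 99.02 in both, and H1f5 at 98.5 and 97.9. H1f4 stood at 99.25 and 99.45, in a peak that also reached an annotated start of the H2B gene H2bc6. Next to H1f1, the peak over H4c1 and H3c1, which carry the core histones H4 and H3, was at 99.77 in WT and 99.79 in KO. The WT call spanned 23759966 to 23762885 and the KO call 23759972 to 23763147. So close to the top the signal percentile can hardly differ. By the summit p the peak over H4c1 and H3c1 stood at percentile 90.6 in WT and 90.8 in KO, where H1f1 stood at 84.4 and 40.1. By the same measure H1f5 stood at 89.7 and 81.8, H1f3 at 89.7 and 87.1, H1f4 at 87.7 and 85.9, and H1f2 at 91.3 and 89.6. Every somatic H1 gene was thus lower in KO by the summit p, beside 40 members lower and 24 higher among all members. The share of all genes lower in KO by this measure was not computed. At H1f4 the WT and KO summits lay 1196 bp apart, so its values by the summit p come from different positions.

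**Figure D3:**
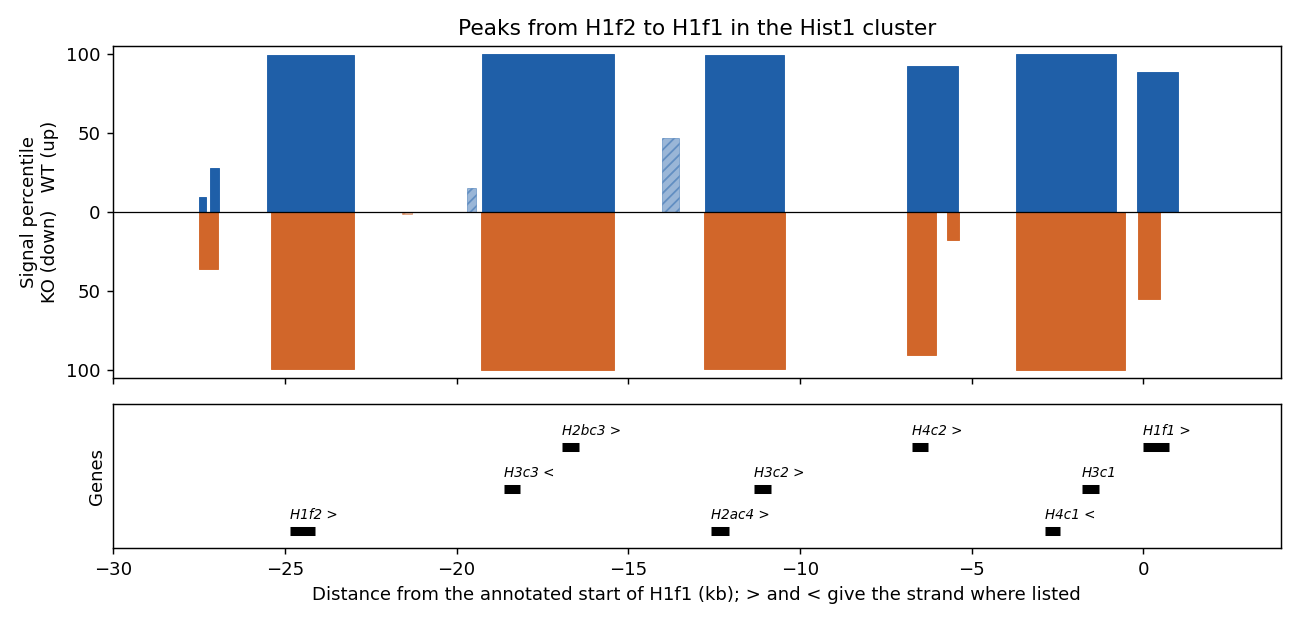
Peaks within 5 kb of a member in the last stretch of block C, by distance from the start of H1f1 (x axis, kb), with the signal percentile of WT peaks drawn upward and of KO peaks downward (y axis). Hatched bars are peaks of 1 list only, and gene bars below carry the strand where it is listed. The WT and KO bars over H1f1 differ in height and width, while those over H4c1 and H3c1 nearly mirror each other.

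The testis forms stood apart from the rest of the clusters. H1f6, the linker histone of spermatocytes, lies inside block C and had no overlapping peak, with the nearest peak 882 bp away in WT and 919 bp away in KO, over the H4 gene H4c3. Block D holds only the testis pair H2bc1 and H2ac1. H2bc1 carried a narrow peak 226 bp wide at percentile 33.2 in WT and 212 bp wide at percentile 19.97 in KO. Its summit lay 328 bp into the gene in WT and 327 bp in KO, and the shared promoter printed above was outside it. H2ac1 had no overlapping peak, and the nearest was the peak of H2bc1, 472 bp away in WT and 470 bp in KO. The remaining member without a peak was the H2B gene H2bu2 of Hist3, whose nearest peak, 4190 bp away in WT and 4332 bp in KO, was that of its neighbour H2aw. Absence from a list does not show closed chromatin, since sequencing depth is unknown.

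The H2A and H2B genes shared peaks in pairs. Of 10 adjacent H2A and H2B genes with annotated starts facing away from each other, 9 lay in 1 common peak in WT and the same 9 in KO, the exception being the testis pair of block D. The gaps between these pairs were 163 to 280 bp. In 6 pairs the WT summit lay between both starts, and in 6 pairs the KO summit did, of which 4 pairs were common to both lists. At H2bc13 and H2ac13 and at H2ac15 and H2bc15 only the WT summit lay there, and at H2ac22 and H2bc22 and at H2ac24 and H4bc24 only the KO summit. At H2ac8 and H2bc8, whose interval is printed above, the summit was at 23571301 in WT and 23571302 in KO, at percentile 99.36 and 99.38. At H2ac12 and H2bc12 the percentiles were 99.24 and 99.08, and at H2bc23 and H2ac23 they were 99.92 and 99.90. Thus the H2A and H2B genes of a pair cannot be given separate values, since both rest on the same peak.

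H2ac7 and H2bc7 had the most negative difference among H2A and H2B genes outside block D. Their common peak stood at percentile 98.1 in WT and 96.1 in KO. The WT peak was 2232 bp wide and met 3 KO peaks, of which that over the genes was 1268 bp wide. By signal per peak length the same pair was 4.82 percentile points higher in KO, the opposite direction. H2bc6 has 2 annotated starts. The distal start lay in the peak of H1f4 described above, and the proximal start in a peak at percentile 96.1 in WT and 96.6 in KO. At H2aw of Hist3 the percentiles were 98.0 and 98.2. At H2bc14 of block A, an H2B gene with a peak of its own, they were 98.8 and 98.6.

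The H3 and H4 genes were accessible without exception, 12 of 12 and 13 of 13 in both lists. The lowest H3 gene was H3c4, at percentile 92.1 in WT and 90.1 in KO, and the highest was H3c15 of Hist2, at 99.97 in both. The lowest H4 gene was H4c2, at 92.2 and 90.4, and the highest was H4c18 in block A, at 99.94 and 99.93, in a peak shared with H2ac24 and H4bc24. Within Hist1 the highest H3 gene in WT was H3c10, at 99.89 in WT and 99.84 in KO, and the highest in KO was H3c3, at 99.81 and 99.85. The median H4 percentile, 97.7 in WT and 98.6 in KO, lay below that of H3, 99.72 and 99.65. Gene by gene, 10 of 13 H4 genes were lower and 3 higher in KO, with a median difference of -0.31 points, so the higher KO median does not reflect most H4 genes. Of all members, H3c6 had the highest positive difference, at percentile 94.8 in WT and 97.4 in KO, and H3c11 stood at 96.5 and 97.8. At both genes the KO peak met 2 WT peaks. By signal per peak length the difference turned negative, with KO minus WT at -10.8 points for H3c6 and -9.04 points for H3c11. H4f16, the single gene of Hist4, stood at 96.9 in WT and 99.06 in KO and was 6.05 points higher in KO by signal per length as well. H4c12 stood at 96.0 and 93.6 with nearly the same width, 1723 bp in WT and 1700 bp in KO. H4c4 stood at 96.3 and 94.99, and by signal per length it was 7.88 points higher in KO. At H4c2 the WT peak of 1471 bp met KO peaks of 842 bp and 351 bp, and by signal per length the gene was 9.07 points higher in KO. At H3c6, H3c11, H3c4, H4c2 and H4c4 a peak of 1 list met 2 peaks of the other, while H4c12 and H4f16 had 1 peak in each. H3c15, H4c18 and H4c12 have near-identical promoter copies, described below, so their values and ranks are uncertain one by one.

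Over all 64 members, 46 had a lower and 18 a higher percentile in KO, beside 63.8% lower and 36.2% higher over the 14708 genes. The median difference was -0.05 points for members and -0.79 points for those genes. For 53 members the lists differed by less than 1 point, and a peak near the top of its list cannot stand much higher. A difference of at least 1 point was found at 8 members that were lower and 3 that were higher in KO. Counted by peak, 29 of 40 pairs of strongest peaks were lower and 11 higher in KO, and WT was the wider in 24 and KO in 16.

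The 10 Hist2 genes formed the most uniformly open cluster. Their 5 peaks stood between percentiles 99.75 and 99.97 in WT and between 99.84 and 99.97 in KO. The peak over H2ac21, H2ac20 and H2bc21 was at 99.79 in WT and 99.85 in KO. H3c15 and H2ac19 shared a peak at 99.97 in both lists, and H2ac18 and H3c14 shared one at 99.95 in both. H4c14 was at 99.75 and 99.84, and H3c13 with H2bc18 at 99.76 and 99.84. Every peak over a Hist2 gene was thus in the uppermost 1% of its list. The next genes outside were lower, with Fcgr1, an immunoglobulin receptor gene, at 41.8 in WT and 35.0 in KO, and Bola1 at 95.1 and 92.1.

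**Figure D4:**
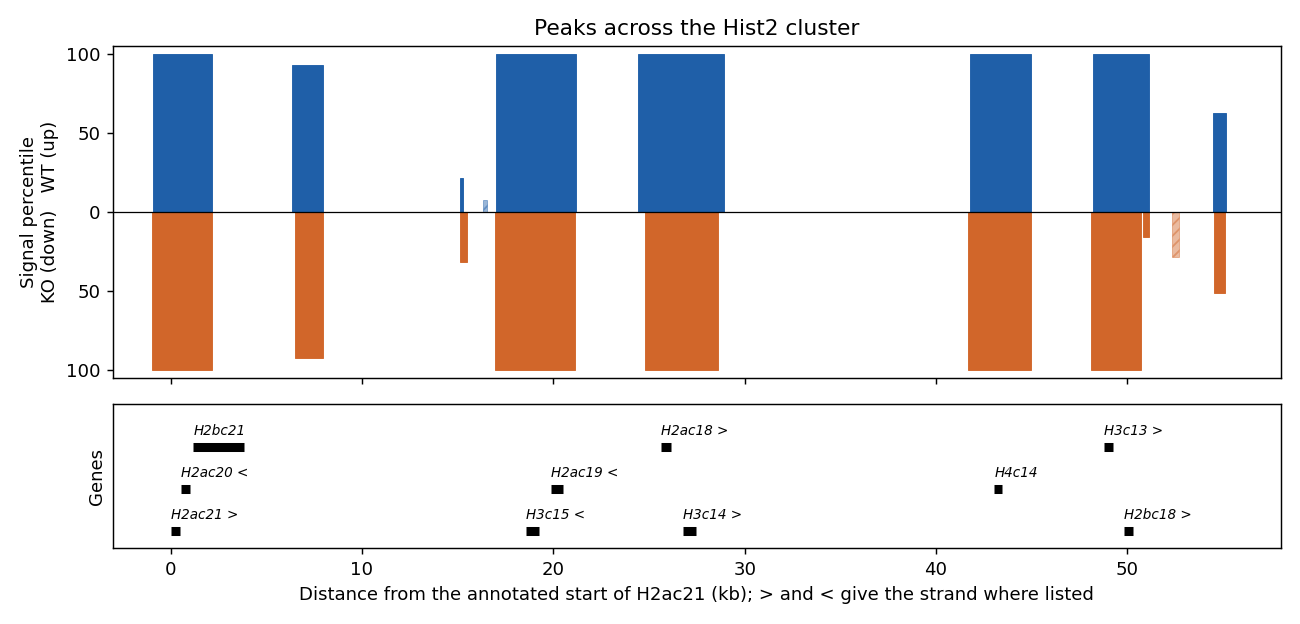
Peaks within 5 kb of a member across the Hist2 cluster, by distance from the start of H2ac21 (x axis, kb), with the signal percentile of WT peaks drawn upward and of KO peaks downward (y axis). Hatched bars are peaks of 1 list only. The 5 broad peaks over genes reach nearly the full height in both directions, and the peaks of 1 list only are narrow and lie between or beside the genes.

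Several promoters are nearly identical copies, and reads from them may not be told apart. The 300-base windows of H2bc23 and the gene listed as H4bc24, whose older symbol Hist1h2br names it an H2B gene, had the same letters throughout. H4c17 and H4c18 were 99.7% identical, H3c14 and H3c15 99.6%, H4c11 and H4c12 95.8%, and H2ac18 and H2ac19 95.8%. These were the 5 pairs at or above 90% among 1891 pairs, whose median identity was 32.3%. Windows were compared without gaps and with a shift of at most 60 bases, and gene bodies were not compared, so other near-identical stretches may have been missed. How reads with several matches were placed is not given in the sources used here, so the values of these 10 genes and of the genes in the same peaks are uncertain one by one.

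The summit, where accessibility peaks, mostly stayed in place. Over the 40 pairs of strongest peaks the median distance between the WT and KO summits was 15.5 bp, and 27 pairs were within 50 bp. In 4 pairs it exceeded 200 bp, and each of these peaks covered several starts. At H2ac4 and H3c2 the summit lay 57 bp inside H2ac4 in WT and 41 bp before the start of H3c2 in KO, a distance of 1159 bp. At H2bc6 and H1f4 it lay 173 bp before the distal start of H2bc6 in WT and 95 bp inside H1f4 in KO. At H2ac21, H2ac20 and H2bc21 it lay 14 bp before the start of H2ac20 in WT and 96 bp before that of H2ac21 in KO. At H4c18, H2ac24 and H4bc24 it lay 89 bp inside H4c18 in WT and 42 bp before the start of H4bc24 in KO. In each of these peaks the WT and KO summits thus lay beside different histone starts.

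The windows of 5 kb held 75 WT and 71 KO peaks. Of the WT peaks 8 were called in WT only, which is 10.7%, beside 20.4% of all WT peaks. Of the KO peaks 3 were called in KO only, which is 4.23%, beside 13.4% of all KO peaks. All 45 WT peaks that overlapped a member were shared, and 44 of 45 such KO peaks were. The peaks of 1 list only were narrow and mostly low in their list. Those of block B were WT-only peaks near H2ac12, H2bc12 and H2bc11 at percentiles of 7.57, 15.7 and 7.18. In block C the WT-only peaks lay near H3c8, H4c6, H3c3 and H2ac4 at 18.4, 13.2, 15.0 and 47.0. Near H3c15 of Hist2 the WT-only peak was at 7.59. The KO-only peaks lay inside the long gene model of H2bc6 at 1.11, near H1f2 at 1.41 and near H2bc18 at 28.2.

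Peaks covered a larger share of the histone blocks than of the genome, except for block D. Peaks covered 25.2% of block A with its 5 kb flanks in WT and 24.2% in KO, 39.3% and 35.6% of block B, and 22.6% and 21.7% of block C. Hist2 was covered to 34.0% and 33.4%, Hist3 to 19.2% and 15.4%, and Hist4 to 35.8% and 40.03%. In block D the shares were 2.02% and 1.89%, close to those of the genome up to the last peak of each chromosome, 2.61% and 2.45%. The genome shares take in sequence far from genes, and windows of the same kind around other genes were not compared. Block B was the block with the largest difference in peak number, with 8 WT and 3 KO peaks. Of these WT peaks 3 were called in WT only. At H4c9 2 WT peaks met 1 KO peak. A further WT peak, 4987 bp from H2ac12, was shared with a KO peak whose summit lay outside the windows. The peaks over the 5 genes of block B were at percentiles of 97.7 to 99.39 in WT and 97.4 to 99.17 in KO.

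**Figure D5:**
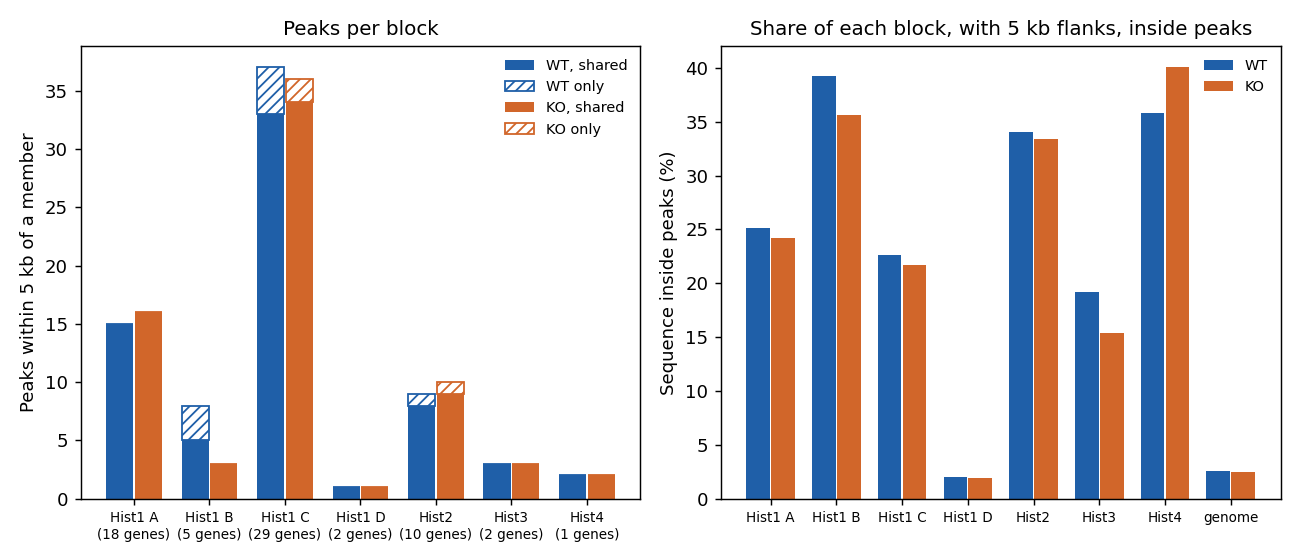
Left, number of peaks with a summit within 5 kb of a member in each block (y axis), shared (filled) or called in 1 list only (hatched), for WT (blue) and KO (orange). Right, percent of each block with 5 kb flanks that lay inside peaks, beside the genome. Block B has 8 WT and 3 KO peaks with similar coverage, and only block D is as sparsely covered as the genome.

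Other genes in and beside the blocks had mixed values. Trim17 overlaps H2aw and shared its peak, and Otud7b, near Hist2, stood at 99.16 in WT and 99.45 in KO. Hfe, a regulator of iron uptake inside block C, was at percentile 45.4 in WT and 35.3 in KO. Within 100 kb of block C, the butyrophilin genes Btn1a1 and Btn2a2 were at 92.9 and 61.9 in WT and at 80.3 and 41.6 in KO. Trim38 and Slc17a2 were overlapped by no peak in either list. Beside block B, Prss16, a thymic protease gene, was at 72.8 and 57.4. The vomeronasal receptor genes Vmn1r188 and Vmn1r189 on the other side had no peak within 5 kb. Beside Hist4, H2aj, a replication-independent H2A gene, was at 93.4 and 95.3.

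Genes that make and use histone messages had open ends in both genotypes. Here a gene end means a peak within 1 kb of either end of the gene, found in both lists for 56.1% of all genes, in WT only for 2.47% and in KO only for 1.31%. All 30 genes of histone message synthesis and processing were open in both. They include Npat, the coactivator of histone transcription, at percentile 98.3 in WT and 98.0 in KO, and Slbp, the stem-loop binding protein, at 97.0 and 97.4. The 2 highest in WT were Cramp1l, at 99.44 and 99.68, and the RNA-tailing enzyme gene Tut1, at 99.28 and 97.5. In KO the next after Cramp1l was Eri1, the gene of an exonuclease of histone messages, at 98.4 in WT and 98.3 in KO. In this list 23 were lower and 7 higher in KO by percentile, with medians of 94.1 and 91.3. Over the 12270 genes open in both lists, 65.7% were lower and 34.3% higher, with medians of 91.3 and 89.8. All 26 chaperone and supply genes were open in both, with 18 lower and 8 higher in KO. Highest in WT were Ssrp1, a subunit of the FACT complex, at 99.87 and 97.4, and Hjurp, the chaperone of the centromeric histone, at 99.81 and 99.61. In KO the highest were Hjurp and the H3.3 chaperone gene Hira, at 99.02 in WT and 99.2 in KO.

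The replication-independent variant histone genes were more divided. Of 17 listed, 16 were found, 12 were open in both lists, 3 in neither, and H1f10 in KO only, at percentile 56.7. Those in neither were H1f7, H2ab2 and H2ab3, the first a spermatid linker histone gene. Highest in WT were H1f0, the linker histone of resting cells, at 99.49 and 99.67, and H2ax, whose product is phosphorylated at DNA breaks, at 99.43 and 99.18. In KO H3f3b, an H3.3 gene, stood above H2ax, at 99.26 in WT and 99.28 in KO. Macroh2a2, named after its values were seen, was at 90.7 in WT and 47.7 in KO. Among the 12, 5 were lower and 7 higher in KO.

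Of the fibroblast markers, 12 of 14 had an open end in both lists and Fap and Lum in neither. Of these 12, 9 were lower and 3 higher in KO, with medians of 91.05 in WT and 94.1 in KO. The higher KO median thus does not reflect most of these markers. The extremes, named after their values were seen, were Prrx1, at percentile 84.3 in WT and 1.38 in KO, and Col1a2, at 89.7 and 99.01. Open in both were 2 of 5 keratinocyte, 1 of 4 leukocyte, 1 of 3 endothelial, 2 of 5 melanocyte and Schwann cell and 1 of 3 muscle markers. Ptprc, Cd3e, Pecam1, Krt5, Epcam and Myod1 had no end peak in either list. The part of other cells in the histone values was not tested.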

How the data were processed

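Peak lists were analysed, 1 per genotype, each combining 3 libraries. The submitters' processing notes name Bowtie2 2.5.1, deepTools 3.5.1, Genrich and the build GRCm38, without roles. How Genrich was run, whether read ends were shifted for Tn5 and how reads with several matches were placed is not given in the sources used here. Columns deposited by the authors include a signal, a summit position, a −log10 p at the summit and a score. The score was not used. The deposited signal was never below 200.0 in either list, and checked on the values the score equalled 1000 times signal per length, held at 1000, within 1 unit for 100.0% of peaks. No read totals come with peak lists, so depth is unknown.

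Gene spans, starts and promoter sequences came from RefSeq GRCm38.p6. A peak was shared if it overlapped the other list by at least 1 bp. Percentiles are the percent of a list's peaks at or below a value. Alternatives changed the overlap, signal minimum, list length, window and ranking measure. Members, lists and tests were chosen with earlier results of these data known. The naming rule took, per cluster and type, the highest and lowest members, members and peaks found in 1 list only, the 5 largest rises and falls, testis forms, all members of Hist2, Hist3 and Hist4, and 2 genes per further list. Python 3.11.15, numpy 2.4.6, pandas 2.3.3 and matplotlib 3.10.9 were used, and the overlap code was tested on simulated data.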

Additional observations from a re-analysis of the deposited data

How the results depend on the processing

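No paired analysis was possible because each genotype has 1 combined list and no result comes from a test, and no library could be left out. Counts of peaks in 1 list only depended on the setting. WT-only peaks, 8 as reported, were 17 with a reciprocal overlap of 50%, 5 at or above the 25th percentile of signal, 2 in the upper 50%, 4 in lists of 73554 peaks each and 3 in windows of 1 kb. KO-only peaks, 3 as reported, were 14 with the reciprocal overlap, 0 in the upper 50% and 1 in windows of 1 kb. The shared percent was 77.3 of WT and 80.3 of KO peaks with the reciprocal overlap, and 96.3 and 100.0 in the upper 50%. Members with a peak in both lists numbered 64 to 66 under every alternative run. The median member percentile was 94.9 in WT and 93.7 in KO by summit −log10 p, 97.96 and 97.8 by signal per length, and 99.08 and 99.13 in lists of equal length. Members lower in KO numbered 37 to 46 and those higher 18 to 24. H1f1 was lower in KO under all 3 ranking alternatives, by 44.3 points in lists of equal length. By summit −log10 p, KO minus WT turned to -1.78 points at H1f4, -0.64 at H2aw, -1.63 at H3c11, -3.17 at H3c6 and 4.20 at H4c2. By signal per length it turned to -1.92 at H1f4, 4.82 at H2ac7 and H2bc7, 9.07 at H4c2, 7.88 at H4c4, -9.04 at H3c11 and -10.8 at H3c6. Apart from H1f4 and H2aw, with smaller differences, these are the reversals among the 11 members that differed by at least 1 point. The cause was not tested. H2bc1 has no value in lists of equal length.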
